A study of Mus musculus with 12 samples.

Results

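Replication-dependent histone genes were followed in cultured E0771 cells, a mouse mammary tumor cell line, through the mean FPKM (fragments per kilobase of transcript, adjusted for library depth) that the authors' deposited table gives for each of 4 groups. The members were all rows whose symbol begins with HIST1H, HIST2H, HIST3H or HIST4H, and 68 of 24197 genes in the table met this rule. They comprised 6 genes for the linker histone H1 and 18, 19, 12 and 13 genes for the core histones H2A, H2B, H3 and H4, in that order. The group 4HC received 4-hydroperoxycyclophosphamide, an activated form of cyclophosphamide, at 4.2 μmol/L for 4 hours, and RNA was taken 68 hours after the wash, at 72 hours in all. The group 4HC + anti-IFNAR1 received the same exposure together with 10 μg/mL of an antibody against the type I interferon receptor chain IFNAR1, which was kept in the medium until collection. The IFNβ group received recombinant mouse IFNβ at 27.8 U/mL for 4 hours and was collected 2 hours after the wash by its sample labels, although the protocol text in the labels gives 68 hours. Control cells received vehicle and were collected at the time point of 72 hours. Each group had 3 libraries from independent cultures. A control antibody group is not among the 4 groups.

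Replication-dependent histone genes lie in clusters, most of them without introns, and supply the histones that package newly made DNA. Their transcription is tied to S phase through the coactivator NPAT, and their mRNAs normally end just after a conserved stem-loop that is bound by SLBP, without the poly(A) tail that other mRNAs carry. When DNA synthesis stops, these mRNAs are degraded. Some members are also known to yield longer, polyadenylated transcripts, in particular in cells that have left the cell cycle. All libraries were made from polyadenylated RNA, so that the values describe the polyadenylated fraction of each histone transcript and not its total amount. Fewer cells in S phase and less of a transcript per cell cannot be told apart in these bulk samples.

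The stem-loop was looked for in the GENCODE M21 transcript models of all members (build GRCm38) as the 16 letters GGNNCTTTNNAGNNCC with arms that pair base by base, allowing G with T. It was present in a model of 44 of the 68 members (64.7%), against 61 of 21901 protein-coding genes (0.279%), a number that includes the members themselves. The form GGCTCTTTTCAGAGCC was found in 26 members, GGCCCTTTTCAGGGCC in 7 and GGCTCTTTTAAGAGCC in 6. Among the 24 members without a match, the models of 13 end at the stop codon and hold no sequence after it, so that a missing match says nothing about these genes. The hexamer AATAAA is the usual signal for cleavage and addition of a poly(A) tail. It stood in the last 40 bases of a model in 15 members (22.1%), against 64.1% of protein-coding genes. Both features were present in 11 members, though in HIST1H2BE and HIST1H2BP they lie in different models of the gene. HIST1H2BE has its AATAAA only in a model that is not protein-coding. Models of that kind were not searched for the share over protein-coding genes. The 13 members whose models end at the stop codon could not show an AATAAA after it and are counted without one. The 11 members with both include HIST1H2AE, which was below control with 4HC, and HIST1H4J, which was above it. Their sites are not among those shown. Sites of some members that are described later are shown here, each read 5′ to 3′ on its own strand. Capitals mark the stem-loop or the AATAAA.
HIST1H1C stem-loop (chr13:23739507-23739532, + strand): gene      site          
HIST1H1C  stem-loop site    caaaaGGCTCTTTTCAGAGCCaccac
Name: sequence, dtype: object
HIST1H1C model end (chr13:23740334-23740359, + strand): gene      site                     
HIST1H1C  AATAAA near the model end    atgcttctAATAAAaagcgtttagtt
Name: sequence, dtype: object
HIST1H2AC stem-loop (chr13:23683472-23683497, - strand): gene       site          
HIST1H2AC  stem-loop site    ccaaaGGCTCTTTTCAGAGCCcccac
Name: sequence, dtype: object
HIST3H2A stem-loop (chr11:58955167-58955192, + strand): gene      site          
HIST3H2A  stem-loop site    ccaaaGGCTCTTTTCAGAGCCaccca
Name: sequence, dtype: object
HIST3H2A model end (chr11:58956789-58956814, + strand): gene      site                     
HIST3H2A  AATAAA near the model end    atatgcccAATAAAataagagtacgt
Name: sequence, dtype: object
HIST2H2BE model end (chr3:96223709-96223734, + strand): gene       site                     
HIST2H2BE  AATAAA near the model end    ttattattAATAAAgttaccgattag
Name: sequence, dtype: object
HIST1H3C stem-loop (chr13:23745042-23745067, - strand): gene      site          
HIST1H3C  stem-loop site    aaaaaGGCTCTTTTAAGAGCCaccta
Name: sequence, dtype: object
HIST1H4H stem-loop (chr13:23531453-23531478, + strand): gene      site          
HIST1H4H  stem-loop site    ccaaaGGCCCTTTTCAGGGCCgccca
Name: sequence, dtype: object
HIST2H4 stem-loop (chr3:96262934-96262959, - strand): gene     site          
HIST2H4  stem-loop site    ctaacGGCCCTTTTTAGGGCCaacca
Name: sequence, dtype: object
HIST2H4 model end (chr3:96261697-96261722, - strand): gene     site                     
HIST2H4  AATAAA near the model end    atacataaAATAAAatcttaaaaaca
Name: sequence, dtype: object
In HIST3H2A the model ran on for 1643 bases after the stem-loop, in HIST1H1C for 840 bases and in HIST1H2AC for 2010 bases. The model of HIST2H2BE, which is 2620 bases long, held an AATAAA near its end and no stem-loop by this search. These are features of the annotation, and the intervals counted by the authors are shorter for some of these genes: the mm9 interval of HIST3H2A has 509 bases and its GRCm38 model has 2146 bases.

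The table gives 1 mean per group and no value per library, so that no SD, interval or test could be computed, and each difference between groups is given as a value without an error. The depth per library is unknown from the table. Genes of a histone class are near-identical in their coding parts, and 10 members form 5 pairs with overlapping intervals, so that their shares of the reads are uncertain. No other gene of the table overlapped a member. Over 9483 genes of at least 1 FPKM in every group, the median log2 difference from control was -0.04 with 4HC, -0.02 with 4HC + anti-IFNAR1 and -0.03 with IFNβ. Fewer genes were listed at 0 FPKM with 4HC (6339) and with 4HC + anti-IFNAR1 (6408) than with IFNβ (8516) or in control cells (8327). Of 6 epithelial markers only KRT8 (46.5, 51.9, 75.3 and 70.2 FPKM with 4HC, with 4HC + anti-IFNAR1, with IFNβ and in control cells) reached 0.5 FPKM in any group, while KRT18, EPCAM and CDH1 did not. Of 4 mesenchymal markers, VIM was at 752.2, 848.9 and 835.0 FPKM in the treated groups against 785.4 FPKM in control cells. COL1A1 was at 21.9, 18.7 and 20.4 FPKM against 26.7 FPKM, while FN1 and CDH2 did not reach 0.5 FPKM in any group. The 5 leukocyte markers in the table summed to at most 0.0500 FPKM in any group, and CD3E was listed at 0 throughout.

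The summed level of the 68 members was above control in each treated group, and with 4HC this rested on HIST1H2BC and HIST3H2A, genes for H2B and H2A. The sum of the group means was 61.6 FPKM with 4HC, 73.4 FPKM with 4HC + anti-IFNAR1, 56.1 FPKM with IFNβ and 48.2 FPKM in control cells, or 1.28, 1.52 and 1.16 times control, where the sum over all genes in the table was 0.968, 1.07 and 1.05 times control. Without HIST1H2BC and HIST3H2A, a pair set aside after their values were seen, the other 66 members summed to 42.2 FPKM with 4HC, 50.7 FPKM with 4HC + anti-IFNAR1, 46.9 FPKM with IFNβ and 40.5 FPKM in control cells, or 1.04, 1.25 and 1.16 times control. The H2B genes summed to 15.7 FPKM with 4HC, 20.8 FPKM with 4HC + anti-IFNAR1, 10.3 FPKM with IFNβ and 8.96 FPKM in control cells. Without HIST1H2BC the other 18 H2B genes summed to 4.90 FPKM with 4HC, 6.46 FPKM with 4HC + anti-IFNAR1, 5.69 FPKM with IFNβ and 4.83 FPKM in control cells, so that nearly all of the H2B difference with 4HC was that of 1 gene. H4 genes summed to 13.4, 16.2 and 10.7 FPKM in the 3 treated groups and to 9.49 FPKM in control cells, and H2A genes to 15.2, 15.9 and 13.1 FPKM against 11.3 FPKM. Without HIST3H2A the other 17 H2A genes summed to 6.53 FPKM with 4HC against 7.71 FPKM in control cells, below control. The H3 genes summed to 8.23 FPKM with 4HC and 10.7 FPKM with 4HC + anti-IFNAR1, against 11.9 FPKM with IFNβ and 9.61 FPKM in control cells, and without HIST1H3C, the highest of them on average, to 7.11 FPKM with 4HC against 7.14 FPKM in control cells. H1 genes were at 9.15, 9.81 and 10.1 FPKM in the treated groups against 8.87 FPKM in control cells. Few genes made up these sums. The 3 highest members held 43.9% of the sum with 4HC and 42.6% with 4HC + anti-IFNAR1, against 32.2% with IFNβ and 32.6% in control cells.

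**Figure D1:**
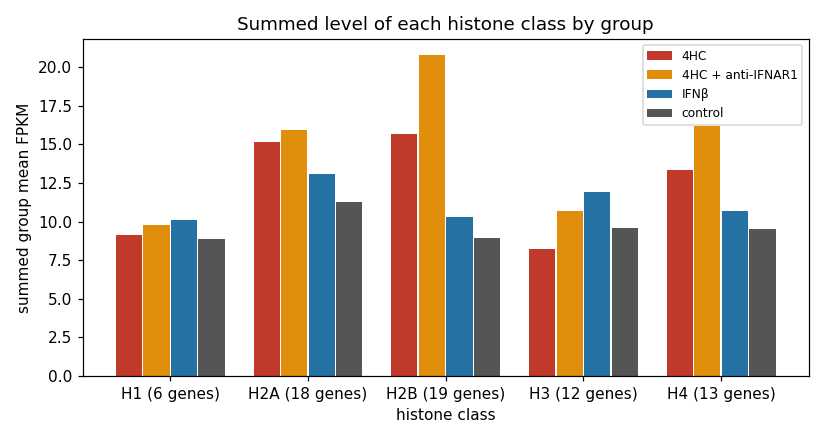
Summed group mean FPKM (vertical axis) of the genes of each histone class, with 1 bar per group: 4HC, 4HC + anti-IFNAR1, IFNβ and control. Each bar is a sum of the authors' group means and has no error bar because no value per library was used. H2B genes reach 15.7 and 20.8 FPKM in the groups given 4HC against 8.96 FPKM in control cells, while H3 genes are at 8.23 FPKM with 4HC against 9.61 FPKM.

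Most members were at low levels in the polyadenylated libraries. At least 1 FPKM was reached by 12 members with 4HC, 15 with 4HC + anti-IFNAR1, 14 with IFNβ and 11 in control cells. Of all genes in the table, 40.2% to 41.4% reached that level in a group, and among members the share was 16.2% to 22.1%. The median over the 68 members was 0.357 FPKM with 4HC, 0.408 FPKM with 4HC + anti-IFNAR1, 0.411 FPKM with IFNβ and 0.340 FPKM in control cells, and 32 members stayed under 0.5 FPKM in every group. The 18 members that reached 1 FPKM in any group comprised 1 H1 gene, 3 H2A genes, 3 H2B genes, 5 H3 genes and 6 H4 genes.

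Beside HIST1H2BC and HIST3H2A, HIST1H1C was among the 3 highest members in each treated group. HIST1H1C (mm9, chromosome 13, 23830675 to 23831400), which encodes a somatic H1, was at nearly the same level in all groups, at 7.61 FPKM with 4HC, 8.59 FPKM with 4HC + anti-IFNAR1, 8.90 FPKM with IFNβ and 7.81 FPKM in control cells (log2 differences from control of -0.04, 0.14 and 0.19). HIST1H2BC (mm9, chromosome 13, 23776067 to 23784349), a gene for H2B, was at 10.8 FPKM with 4HC and 14.3 FPKM with 4HC + anti-IFNAR1, against 4.62 FPKM with IFNβ and 4.14 FPKM in control cells. Its annotation in the file has a long and a short interval, and the share of reads from each is not given. HIST3H2A (mm9, chromosome 11, 58768186 to 58768694), the H2A gene of the small cluster on chromosome 11, was at 8.63 FPKM with 4HC and 8.33 FPKM with 4HC + anti-IFNAR1, against 4.56 FPKM with IFNβ and 3.58 FPKM in control cells. Both genes thus stood high in the groups given 4HC, with or without antibody. With IFNβ they were above control by less, with log2 differences of 0.16 for HIST1H2BC and 0.34 for HIST3H2A. HIST1H2AE, another H2A gene, ran the other way, at 2.43 FPKM with 4HC and 3.16 FPKM with 4HC + anti-IFNAR1 against 3.92 FPKM with IFNβ and 3.77 FPKM in control cells.

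**Figure D2:**
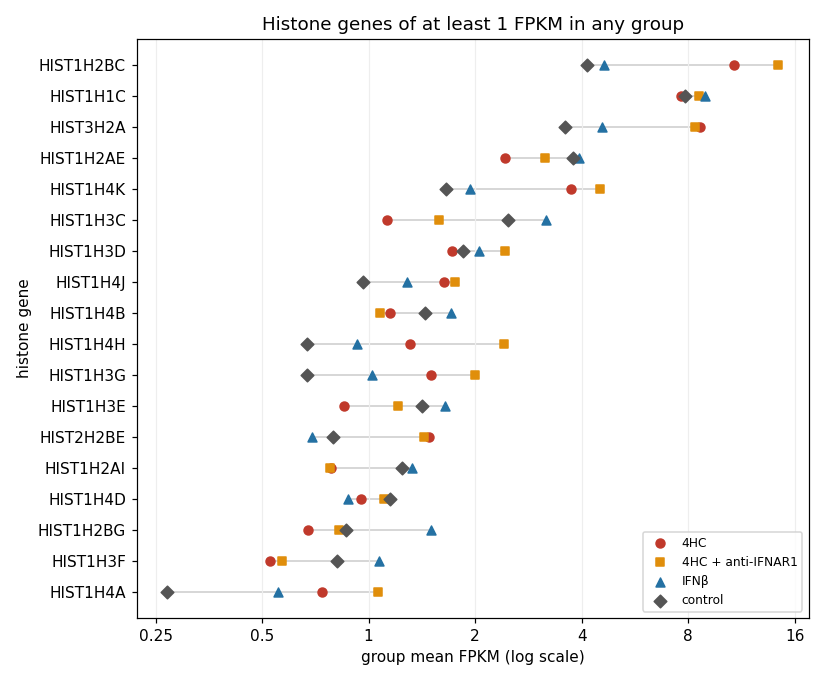
Group mean FPKM on a log axis (horizontal) of the 18 members that reached 1 FPKM in any group, ordered by their mean over the groups. Circles stand for 4HC, squares for 4HC + anti-IFNAR1, triangles for IFNβ and diamonds for control, and each point is 1 mean given by the authors. HIST1H2BC, HIST3H2A and HIST1H4K have both 4HC points to the right of the others, and HIST1H3C, HIST1H3E and HIST1H3F have both to the left.

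Genes for H4 and H3 filled most of the range between 0.5 and 5 FPKM. Among H4 genes, HIST1H4K was at 3.74, 4.52 and 1.94 FPKM with 4HC, with 4HC + anti-IFNAR1 and with IFNβ, against 1.65 FPKM in control cells. In the same order of groups, HIST1H4J was at 1.63, 1.76 and 1.28 FPKM against 0.962 FPKM, and HIST1H4H at 1.31, 2.42 and 0.929 FPKM against 0.670 FPKM. These 3 genes were above control in each treated group. HIST1H4B was at 1.15, 1.08 and 1.71 FPKM against 1.44 FPKM, and so below control in the groups given 4HC only. HIST1H4D stayed below control in each treated group, at 0.953, 1.11 and 0.875 FPKM against 1.15 FPKM. For H3, HIST1H3C was at 1.13, 1.58 and 3.17 FPKM against 2.47 FPKM, HIST1H3E at 0.850, 1.21 and 1.65 FPKM against 1.41 FPKM, and HIST1H3F at 0.526, 0.568 and 1.07 FPKM against 0.814 FPKM. These H3 genes were lowest with 4HC and highest with IFNβ. HIST1H3D was at 1.72, 2.43 and 2.05 FPKM against 1.84 FPKM, and HIST1H3G at 1.5, 2.00 and 1.02 FPKM against 0.671 FPKM. HIST1H3G thus exceeded control in each treated group, whereas HIST1H3D was slightly below it with 4HC. HIST2H2BE was at 1.48, 1.43 and 0.692 FPKM against 0.791 FPKM, HIST1H2BG at 0.675, 0.827 and 1.495 FPKM against 0.861 FPKM, and HIST1H2AI at 0.785, 0.776 and 1.33 FPKM against 1.24 FPKM. The H2B genes HIST2H2BE and HIST1H2BG were therefore highest in different groups, HIST2H2BE with 4HC and HIST1H2BG with IFNβ.

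4HC against control addressed what exposure to the drug did to these transcripts after 72 hours. Differences are given as log2 of (mean FPKM + 0.1) over (mean FPKM + 0.1), which understates the difference of low genes, and a gene was counted when it reached 0.5 FPKM in either group and differed by more than 2-fold. Members went in both directions: of 29 that reached the minimum, 8 were higher by more than 2-fold with 4HC and 2 were lower, beside 5.07% and 0.445% of the 11016 genes counted in the table. The median over these 29 members was 0.02, beside -0.01 over all genes. Of the 8, 4 reached the minimum only through 4HC, the group where they were high. Among the 24 members of at least 0.5 FPKM in control cells, 4 were higher and 2 were lower by more than 2-fold, beside 2.72% and 0.466% of genes of that level, and the median was -0.13.

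Of the 5 H2A genes counted, HIST1H2AC and HIST3H2A were higher with 4HC, and 3 were lower by less than 2-fold. HIST1H2AC, whose start lies next to that of HIST1H2BC, was at 0.642 FPKM with 4HC against 0.0826 FPKM in control cells (log2 2.02). That difference was the largest among the members counted at this pseudocount, but HIST1H2AC reached the minimum only through 4HC, and with a pseudocount of 1 FPKM its log2 difference was 0.60, against 1.20 for HIST1H2BC and 1.07 for HIST3H2A. For HIST3H2A the log2 difference was 1.25. HIST1H2AE, HIST1H2AI (0.785 FPKM with 4HC against 1.24 FPKM in control cells) and HIST1H2AK (0.339 FPKM against 0.531 FPKM) had log2 differences of -0.62, -0.60 and -0.52. Among H2B genes, HIST1H2BC was higher (log2 1.36) and HIST2H2BE, an H2B gene of the second cluster, came close to 2-fold, at 1.48 FPKM with 4HC against 0.791 FPKM in control cells (log2 0.83). HIST1H2BB was at 0.564 FPKM with 4HC against 0.976 FPKM in control cells (log2 -0.70), and HIST1H2BG at 0.675 FPKM against 0.861 FPKM (log2 -0.31).

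H3 genes were split. HIST1H3G was at 1.5 FPKM with 4HC against 0.671 FPKM in control cells (log2 1.05) and HIST1H3I at 0.640 FPKM against 0.267 FPKM (log2 1.01). HIST1H3C, the highest H3 gene in control cells, was at 1.13 FPKM with 4HC against 2.47 FPKM in control cells (log2 -1.07), and HIST1H3H at 0.231 FPKM against 0.619 FPKM (log2 -1.12). These were the only members that were lower by more than 2-fold with 4HC among those counted. HIST1H3E (0.850 FPKM against 1.41 FPKM) and HIST1H3F (0.526 FPKM against 0.814 FPKM) were lower by less, with log2 differences of -0.67 and -0.55, while HIST1H3D was at 1.72 FPKM with 4HC against 1.84 FPKM in control cells. Of 10 H4 genes counted, 8 had a difference above 0, beside 5336 of the 11016 genes counted in the table. Of these 8, HIST2H4 and HIST1H4A reached the minimum only through 4HC. HIST1H4M and HIST1H4N, also among the 8, are an overlapping pair and had log2 differences of only 0.02 and 0.05. HIST2H4 was at 0.892 FPKM with 4HC against 0.262 FPKM in control cells (log2 1.45), HIST1H4A at 0.740 FPKM against 0.270 FPKM (log2 1.18) and HIST1H4K at 3.74 FPKM against 1.65 FPKM (log2 1.13). HIST1H4H (1.31 FPKM against 0.670 FPKM) and HIST1H4J (1.63 FPKM against 0.962 FPKM) were below the 2-fold line, as was HIST1H4B on the other side, at 1.15 FPKM with 4HC against 1.44 FPKM in control cells. Of the H1 genes, HIST1H1E was at 0.530 FPKM with 4HC against 0.327 FPKM in control cells (log2 0.56), and HIST1H1C differed by -0.04.

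**Figure D3:**
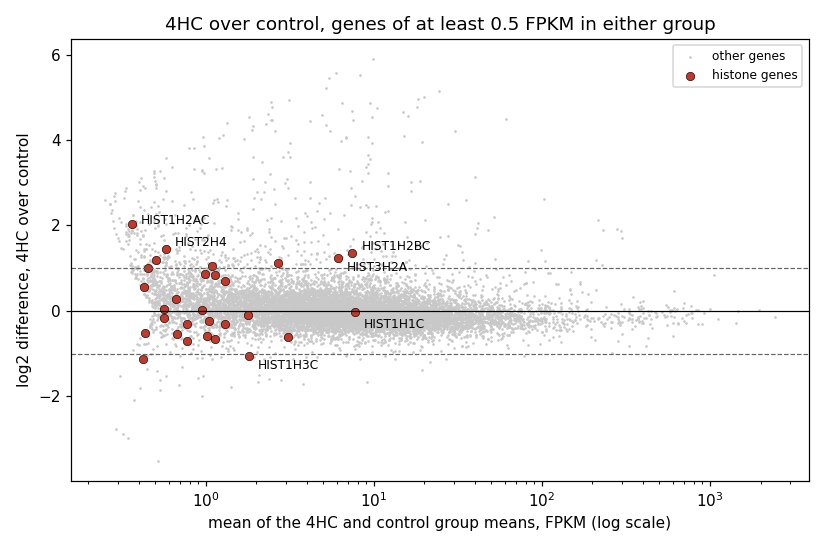
Log2 difference of 4HC over control (vertical axis) against the mean of both group means in FPKM (horizontal log axis) for the 11016 genes of at least 0.5 FPKM in either group. Grey points are other genes, red points are the 29 histone genes counted, and dashed lines mark 2-fold. The histone genes lie on both sides of 0, with 8 above the upper line and 2 below the lower one.

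With the antibody added to 4HC, some genes of each core histone class stood above control by more than 2-fold. These were 2 of 7 H2A genes counted, 1 of 6 H2B genes, 1 of 7 H3 genes and 4 of 11 H4 genes. The median of the 7 H3 genes was -0.21. This comparison and that of 4HC alone use the same control libraries, so that their values are only given side by side. Of 32 members counted, 8 were higher by more than 2-fold than in control cells and 0 were lower. Over the 10995 genes counted, these shares were 4.46% and 0.446%. Of the 8, HIST1H2AC, HIST1H4A and HIST2H4 reached the minimum only through 4HC + anti-IFNAR1, the group where they were high. The median was 0.19, beside 0.02 over all genes, and it was -0.03 among the 24 members of at least 0.5 FPKM in control cells, of which 5 were higher by more than 2-fold beside 2.36% of genes of that level. HIST1H2AC was at 0.699 FPKM with 4HC + anti-IFNAR1 (log2 difference from control 2.13, against 2.02 with 4HC alone). For HIST1H2BC the log2 difference was 1.77, against 1.36 with 4HC alone, and for HIST1H4K it was 1.40 against 1.13. HIST3H2A had 1.20 against 1.25, and HIST2H4, at 0.688 FPKM with 4HC + anti-IFNAR1, had 1.12 against 1.45. HIST1H4H, at 2.42 FPKM with 4HC + anti-IFNAR1, passed 2-fold over control in this group (log2 1.71) and not with 4HC alone (log2 0.87). HIST1H4A was at 1.06 FPKM (log2 1.65) and HIST1H3G at 2.00 FPKM (log2 1.45), both in the 4HC + anti-IFNAR1 group. HIST1H3I did not pass 2-fold here, at 0.394 FPKM (log2 0.43). The lowest differences were those of HIST1H3H (0.341 FPKM, log2 -0.71), HIST1H3C (1.58 FPKM, log2 -0.61) and HIST1H2AI (0.776 FPKM, log2 -0.61), all under 2-fold.

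**Figure D4:**
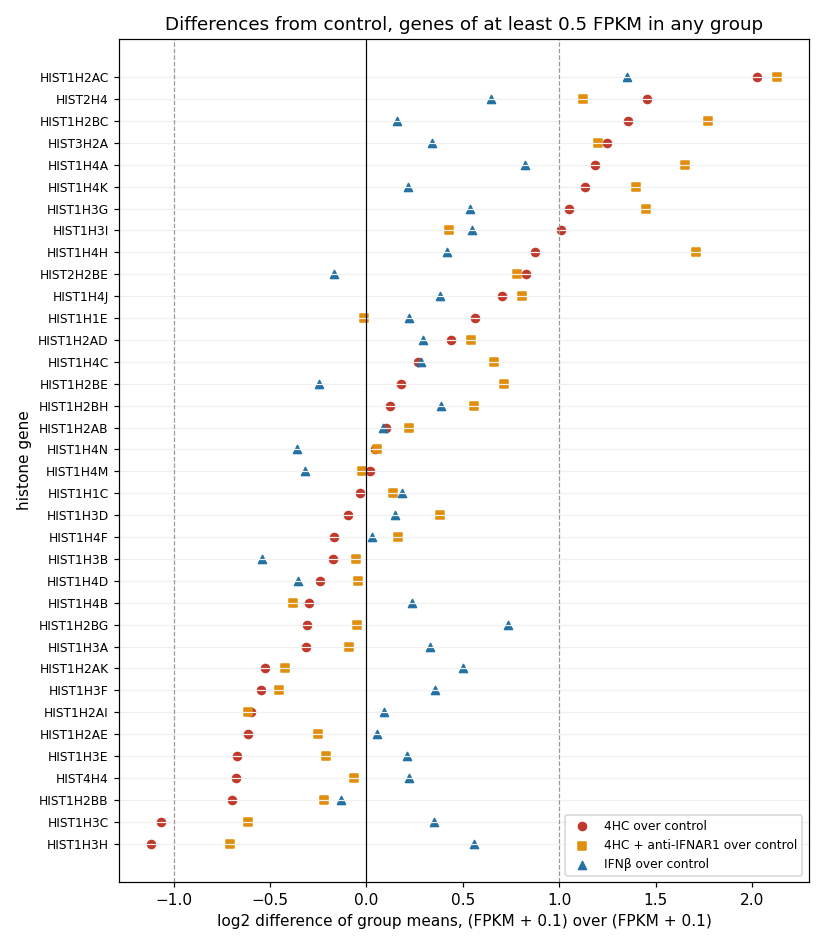
Log2 difference from control (horizontal axis) of the 36 members of at least 0.5 FPKM in any group, ordered by the difference with 4HC. Circles stand for 4HC, squares for 4HC + anti-IFNAR1 and triangles for IFNβ, all 3 set against the same control libraries, and dashed lines mark 2-fold. For HIST1H2BC the points lie at 1.36, 1.77 and 0.16, and for HIST1H3H at -1.12, -0.71 and 0.56.

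Exposure to IFNβ asked what the cytokine alone did shortly after it was given. Of 28 members counted, 0 were higher and 0 were lower than control by more than 2-fold, beside 2.19% and 0.318% of the 10677 genes counted. No test could be run on these values, with any tool. The median was 0.23, beside -0.03 over all genes. Among the 24 members of at least 0.5 FPKM in control cells it was 0.21, beside -0.04 over genes of that level. A difference above 0 was found in 22 of the 28 members, beside 4607 of the 10677 genes counted. Of these 22, HIST1H4A, HIST1H3A, HIST1H2BH and HIST4H4 reached the minimum only through IFNβ, the group where they were high. The 3 largest positive differences were those of HIST1H4A (0.554 FPKM with IFNβ against 0.270 FPKM in control cells, log2 0.82), HIST1H2BG (1.495 FPKM against 0.861 FPKM, log2 0.73) and HIST1H3H (0.958 FPKM against 0.619 FPKM, log2 0.56). HIST1H3B (0.383 FPKM with IFNβ against 0.604 FPKM in control cells, log2 -0.54), HIST1H4N (0.408 FPKM against 0.553 FPKM, log2 -0.36) and HIST1H4D (0.875 FPKM against 1.15 FPKM, log2 -0.35) had the largest negative ones. HIST1H3C was at 3.17 FPKM with IFNβ against 2.47 FPKM in control cells (log2 0.35). HIST1H3E (1.65 FPKM with IFNβ against 1.41 FPKM) and HIST1H3F (1.07 FPKM against 0.814 FPKM) also had values above control, and 7 of the 8 H3 genes counted did. HIST1H2AC stayed under the minimum in both groups, at 0.366 FPKM with IFNβ against 0.0826 FPKM in control cells. Time between wash and RNA isolation was 2 hours for IFNβ and 68 hours for 4HC, so that agent and time cannot be told apart between these groups.

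The antibody added to 4HC was set against 4HC alone to see which transcripts depended on type I interferon signaling. Of 32 members counted, 0 were higher and 0 were lower by more than 2-fold with the antibody, beside 0.46% and 1.52% of the 11083 genes counted. Of the 32 differences 24 were above 0, beside 5436 of the 11083 genes counted. Of these 24, HIST1H2AB, HIST1H2AD, HIST1H2BE, HIST1H2BH and HIST1H4F reached the minimum only through 4HC + anti-IFNAR1, the group where they were high. Among the 27 members of at least 0.5 FPKM with 4HC the median was 0.17. Over the 32 members it was 0.18, beside -0.01 over all genes. A like median, 0.18, was found for the 6 control genes chosen for steady levels (4 above 0), the 9 replication-independent histones had 0.27 (9 above 0) and the 25 S-phase genes 0.12 (20 above 0). HIST1H4H was farthest, at 2.42 FPKM with 4HC + anti-IFNAR1 against 1.31 FPKM with 4HC (log2 0.84). HIST1H2BE (0.678 FPKM against 0.437 FPKM, log2 0.53) and HIST1H2BB (0.825 FPKM against 0.564 FPKM, log2 0.48) came next, and HIST1H3D was at 2.43 FPKM against 1.72 FPKM (log2 0.48). HIST1H3I (0.394 FPKM with 4HC + anti-IFNAR1 against 0.640 FPKM with 4HC, log2 -0.59), HIST1H1E (0.323 FPKM against 0.530 FPKM, log2 -0.58) and HIST2H4 (log2 -0.33) had the largest differences the other way. Over the same pair of groups, all 6 interferon-stimulated genes followed as controls were lower by more than 2-fold, such as the ubiquitin-like modifier ISG15 at 19.4 FPKM with 4HC + anti-IFNAR1 against 117.6 FPKM with 4HC.

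H2A and H2B genes are often arranged head to head, with a short region between both starts. Within the mm9 intervals, 15 such neighbours less than 400 bases apart were found, some of them built from the same overlapping rows. HIST1H2AC and HIST1H2BC, separated by 238 bases, were both higher in the groups given 4HC: their log2 differences from control were 2.02 and 1.36 with 4HC, and 2.13 and 1.77 with 4HC + anti-IFNAR1. With 4HC the H2B gene of this pair was at 10.8 FPKM and the H2A gene at 0.642 FPKM. HIST1H2AE and HIST1H2BG, 178 bases apart, were both lower with 4HC (log2 -0.62 and -0.31), at 2.43 and 0.675 FPKM against 3.77 and 0.861 FPKM in control cells. HIST2H2AC and HIST2H2BE, 239 bases apart, went opposite ways with 4HC: HIST2H2AC was at 0.105 FPKM against 0.338 FPKM in control cells (log2 -1.09), below the minimum in both groups, while HIST2H2BE was higher (log2 0.83). Neighbours in the same arrangement thus had differences of the same sign in some pairs and of opposite sign in others.

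Promoter windows of 250 bases before to 50 bases after the start (RefSeq, GRCm38.p6) were matched to 61 of the 68 members by symbol. They were searched on both strands for CCAAT, for TATAAA and for the octamer ATTTGCAT, motifs known from histone promoters, of which none overlapped another in the windows shown. CCAAT was present in 52 of the 61 windows (85.2%, against 37.9% of 27025 windows of this length), in every window of H1, H2A, H2B and H3 genes and in 3 of 12 windows of H4 genes. TATAAA was in 35 (57.4%, against 14.2%) and ATTTGCAT in 13 (21.3%, against 1.75%). The octamer was found in 7 windows of H2A genes and 6 of H2B genes. Windows of divergent neighbours overlap, so that these are not independent counts. The window of HIST1H2AC spans most of the region it shares with HIST1H2BC, and that of HIST1H3C, which was lower with 4HC, is shown for contrast. Capitals mark the motifs on either strand.
HIST1H2AC (chr13:23683910-23684209, - strand): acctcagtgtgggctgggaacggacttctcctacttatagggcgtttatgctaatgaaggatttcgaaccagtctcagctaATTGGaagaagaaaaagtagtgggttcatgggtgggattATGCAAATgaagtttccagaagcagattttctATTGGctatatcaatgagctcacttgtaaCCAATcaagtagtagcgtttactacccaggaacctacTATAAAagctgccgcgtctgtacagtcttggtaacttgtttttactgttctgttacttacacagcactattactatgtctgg
HIST1H3C (chr13:23745472-23745771, - strand): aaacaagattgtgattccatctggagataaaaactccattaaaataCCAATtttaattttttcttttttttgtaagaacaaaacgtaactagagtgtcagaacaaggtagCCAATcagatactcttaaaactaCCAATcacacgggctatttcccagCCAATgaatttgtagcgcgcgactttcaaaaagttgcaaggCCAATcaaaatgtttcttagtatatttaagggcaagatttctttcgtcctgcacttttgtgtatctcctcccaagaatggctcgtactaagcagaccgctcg
The HIST1H2AC window held 3 CCAAT, 1 TATAAA and 1 ATTTGCAT, the last starting 130 bases before the start, and the HIST1H3C window held 5 CCAAT and neither of the others. A match describes letters in the window and was not tied to any difference in level.

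Whether a model ended with an AATAAA was set beside the levels, since only polyadenylated RNA entered the libraries. The 15 members with AATAAA in the last 40 bases of a model summed to 24.7 FPKM with 4HC, 26.8 FPKM with 4HC + anti-IFNAR1, 21.5 FPKM with IFNβ and 18.5 FPKM in control cells. The other 53 members summed to 36.9, 46.6 and 34.6 FPKM in the treated groups against 29.7 FPKM in control cells. With 4HC, 10 of the 15 and 25 of the 53 were above control, with median log2 differences of 0.25 and -0.01 over all members of each set. With IFNβ the medians were 0.19 and 0.16. Among those of at least 0.5 FPKM with 4HC or in control cells, 5 of 7 and 10 of 22 were above control with 4HC. Over all genes this held for 5336 of 11016. Of the 5, HIST1H4A and HIST2H4 reached this minimum only through 4HC, the group where they were high. The same was true of HIST1H1E, HIST1H2AC and HIST1H3I among the 10. The 53 include the 13 members whose models end at the stop codon and could not show an AATAAA after it. The 15 include the overlapping rows HIST1H2BQ and HIST1H2BR, listed at 0.00155 FPKM with 4HC and 0.00158 FPKM in control cells. HIST1H2BC and HIST1H4K, both higher with 4HC, were among the 53, and the model of HIST1H4K is 312 bases long and ends at the stop codon. These sets rest on the annotation alone and the difference between them was not tested.

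The 32 members under 0.5 FPKM in every group included 11 under 0.1 FPKM throughout. The genes known for testis-restricted histones were among these, with HIST1H1T between 0.00910 and 0.0254 FPKM, and HIST1H2AA and HIST1H2BA listed at 0 with 4HC and with IFNβ. Germ cell markers were near 0 as well, summing to 0.0689 to 0.256 FPKM over 5 genes. In the second cluster, the overlapping rows HIST2H3C1 and HIST2H3C2 were at 0.284 and 0.290 FPKM with 4HC and at 0.356 and 0.364 FPKM with 4HC + anti-IFNAR1, against 0.0528 and 0.0540 FPKM with IFNβ and 0.0301 and 0.0308 FPKM in control cells. HIST2H2AA1 and HIST2H2AA2 had the same order, at 0.141 and 0.131 FPKM with 4HC and 0.171 and 0.160 FPKM with 4HC + anti-IFNAR1, against 0.0496 and 0.0462 FPKM with IFNβ and 0.00897 and 0.00837 FPKM in control cells. Each pair is 1 measurement in effect. All these levels are so low that few reads lie behind them. The 10 genes of the second cluster together summed to 3.90 FPKM with 4HC, 4.35 FPKM with 4HC + anti-IFNAR1, 2.62 FPKM with IFNβ and 2.07 FPKM in control cells, and the 54 genes of the first cluster to 48.6, 60.1 and 48.1 FPKM against 42.0 FPKM.

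Genes that make or handle histone mRNA differed little. Of 25 genes for 3′ end processing, 23 reached 0.5 FPKM with 4HC or in control cells and 0 passed 2-fold in either direction. Of these, 21 were below control, with a median log2 difference of -0.15. Over all genes counted, 5680 of 11016 were below control with 4HC, with a median of -0.01. SLBP, which binds the stem-loop, was at 12.8 FPKM with 4HC, 15.9 FPKM with 4HC + anti-IFNAR1, 16.1 FPKM with IFNβ and 15.3 FPKM in control cells. NPAT (4.43 FPKM with 4HC against 4.79 FPKM in control cells), its partner at histone loci CASP8AP2 (3.68 FPKM against 3.76 FPKM) and the U7 snRNP protein LSM11 (1.91 FPKM against 2.42 FPKM) had log2 differences of -0.11, -0.03 and -0.33. The list also held CPSF2 (log2 -0.35) and the nuclease CPSF3 (log2 -0.33), its largest differences, and the abundant PABPN1 (-0.11) and SRRT (-0.25). Of 16 genes for histone mRNA decay, 8 were above and 8 below control with 4HC, and 0 passed 2-fold. Among them, the exonuclease genes XRN2, EXOSC10 and DIS3 had log2 differences of -0.18, -0.38 and -0.50, and ZCCHC6, a uridylyltransferase gene, one of 0.39.

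Genes listed as replication-independent histones, which yield polyadenylated mRNAs, were mostly below control with 4HC. Of 9 that reached 0.5 FPKM, 8 were lower with 4HC by less than 2-fold, with a median of -0.33. In the same comparison 5680 of all 11016 genes counted were below control, with a median of -0.01. H2AFZ was at 127.9 FPKM with 4HC, 184.2 FPKM with 4HC + anti-IFNAR1, 184.7 FPKM with IFNβ and 177.1 FPKM in control cells, and H3F3A at 135.4, 163.8 and 172.9 FPKM in the treated groups against 157.7 FPKM. H3F3B, H1F0, CENPA, H2AFV, H2AFX and H2AFY had log2 differences of -0.42, -0.33, -0.35, -0.47, -0.24 and -0.18 with 4HC. The exception was H2AFJ, an H2A variant, at 15.1 FPKM with 4HC, 20.999 FPKM with 4HC + anti-IFNAR1 and 9.63 FPKM with IFNβ, against 9.85 FPKM in control cells (log2 0.61 with 4HC and 1.08 with the antibody).

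Transcripts of S phase and mitosis were mostly below control with 4HC. Of 25 genes for S-phase entry and DNA synthesis, 22 were below control with 4HC, 19 with 4HC + anti-IFNAR1 and 15 with IFNβ. Their medians were -0.35, -0.21 and -0.06, and 0 passed 2-fold in any of these comparisons. Over all genes counted, in the same order, 5680 of 11016, 5289 of 10995 and 6070 of 10677 were below control. The medians over all genes were -0.01, 0.02 and -0.03. PCNA was at 77.1 FPKM with 4HC against 91.4 FPKM in control cells, and TK1, CCNA2 and UHRF1 had log2 differences of -0.82, -0.53 and -0.72 with 4HC. All 9 mitosis genes were below control with 4HC by less than 2-fold (median -0.35), the largest difference being that of MKI67 (5.93 FPKM against 10.3 FPKM, log2 -0.78). Among 24 histone chaperone genes in the table, 19 were below control with 4HC and 0 passed 2-fold. Of these, NPM1 and SET were the most abundant (log2 -0.03 and -0.25), ASF1B had -0.56, and DAXX was above control with 4HC (17.6 FPKM against 9.51 FPKM, log2 0.88) and by more than 2-fold with IFNβ (31.7 FPKM, log2 1.73). Of 6 control genes chosen for steady levels, 5 were below control with 4HC, GAPDH by -0.29 and PPIA by -0.32. The part of these shifts in the histone values was not tested.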

How the data were processed

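Polyadenylated RNA of E0771 cells was sequenced as stranded libraries, 3 per group in 4 groups (12 in all). The submitters' processing notes name TopHat2, featureCounts and edgeR, without versions, and mouse build mm9. How reads that fit several gene copies were counted is not given in the sources used here. The authors deposited 1 table of 24197 genes with the mean FPKM of each group. Its 12 columns of the authors' own comparisons (linear fold, signed fold and edgeR-adjusted P) were not used. There were no counts and no values per library, so that no count test could be run. Depth per library was not used here. The paper gives an average over its cell culture libraries and refers to its supplement for sequencing statistics of the libraries.

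Log2 differences of group means were computed with a pseudocount of 0.1 FPKM, and genes were counted past 2-fold at a minimum of 0.5 FPKM in either group (Python 3.11.15, pandas 2.3.3, numpy 2.4.6). The counting code was tested on simulated data. Members and lists were chosen with earlier results of these data known. Named were members of at least 1 FPKM in any group, the 3 largest differences in each direction per comparison, SLBP, NPAT, CASP8AP2, LSM11, replication-independent histones over 0.5 FPKM, and from each list the 2 highest genes and the 2 of largest difference with 4HC. Members named beyond this rule were chosen after their values were seen, as was the octamer motif. Sequences are from GENCODE M21 (GRCm38) and RefSeq (GRCm38.p6), and coordinates were not converted between builds. Other pseudocounts, minimums, folds, centring and subsets of members were tried.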

Additional observations from a re-analysis of the deposited data

How the results depend on the processing

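The file gives group means, so that leaving out single libraries could not be run. No paired analysis was possible because the columns hold no values per library. Of 116 values under the alternatives, 98 stayed close to the value reported: sums and counts within 1.5 times, and medians by less than the log2 of 1.5. Some could not move: no testis-restricted member or pseudogene reached 0.5 FPKM, so that leaving these out changed nothing. The limit for medians is wider than each main median, so that a change of sign could count as close. Numbers past 2-fold moved with the threshold and with low values, and so did the share of all genes counted, which is given in parentheses. At a pseudocount of 1 FPKM, 2 members were higher (2.31%) and 0 lower (0.127%) with 4HC, and 4 were higher (1.35%) with 4HC + anti-IFNAR1. At a minimum of 1 FPKM, 4 were higher (3.95%) and 1 lower (0.335%) with 4HC. With no minimum, 4 were lower with 4HC (0.351%), 2 were higher (1.27%) and 1 lower (0.388%) with IFNβ, and 2 were higher (0.5%) and 1 lower (1.04%) with 4HC + anti-IFNAR1 against 4HC. At a fold of 1.5, 6 were lower with 4HC (2.92%) and 3 with 4HC + anti-IFNAR1 (3.55%), 2 were higher with IFNβ (3.48%), and 1 was higher (1.7%) and 1 lower (2.49%) with 4HC + anti-IFNAR1 against 4HC. At a pseudocount of 0.01 FPKM, 1 was higher with IFNβ (2.29%). When 0.5 FPKM was required in control cells, an alternative chosen after seeing the data, 4 were higher with 4HC (2.72%) and 5 with 4HC + anti-IFNAR1 (2.36%). Medians over members moved too. With 4HC the median, 0.02, changed sign: it was -0.04 at a minimum of 1 FPKM, -0.01 with 1 row of each overlapping pair and -0.13 when 0.5 FPKM was required in control cells. With 4HC + anti-IFNAR1 it was 0.19, and 0.58 at a minimum of 1 FPKM and -0.03 when 0.5 FPKM was required in control cells. For 4HC + anti-IFNAR1 against 4HC it was 0.18, and 0.12 to 0.37 under the alternatives, and for IFNβ it was 0.23, and 0.14 to 0.25.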
